A study of Mus musculus with 4 samples.

Results

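The 36 genes described here are the glycolytic enzymes and the genes of the response to low oxygen, taken by name from the 54532 genes counted in each of 4 libraries of C3H10T1/2 cells, a mouse mesenchymal stem cell line. They comprise 17 glycolytic enzymes, 5 transporters and regulators of glycolytic flux, 3 genes of the oxygen-sensing factor HIF and its hydroxylases, and 11 hypoxia targets. The PRDX1MT library (1) carries a CRISPR edit at the splice acceptor of Prdx1 intron 5, and its genotype is labelled PRDX1-KO. The 2 DKO libraries, clone 1 and clone 5, are DNMT3A/B double knockout clones, and the WT library (1) is the unedited line. A Prdx1 edit is named in the labels for PRDX1MT and for no other library, and is neither stated nor denied for the clones. The oxygen level of the cultures is not given in the sources used here. All 4 were grown in DMEM with 10% serum under 5% CO2 at 37 °C. The series addresses how Mmachc becomes silenced in Prdx1 splice-site mutants and which epigenetic regulators take part. In bulk RNA, fewer cells that express a gene and less RNA of it per cell cannot be told apart.

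Glycolysis splits glucose into pyruvate in the cytosol, and lactate dehydrogenase turns pyruvate into lactate and back. When oxygen is low, prolyl hydroxylases no longer mark the HIF-1 alpha subunit for breakdown, and HIF binds the hypoxia response element and raises transcription of glycolytic genes, of the angiogenic factor VEGF and of genes that limit mitochondrial use of pyruvate. Several steps of the pathway are run by alternative isoenzymes that differ in tissue distribution and kinetics.

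The depth was 27570136 counts in PRDX1MT, 34901511 and 27789693 counts in clones 1 and 5, and 37685798 counts in WT. The noncoding RNA Gm26917 took 22.3% of the counts in PRDX1MT, 5.36% and 12.2% in clones 1 and 5, and 10.5% in WT. With this gene and the small, ribosomal and mitochondrial RNA genes removed, the same 7 and 3 members passed the size rule described below for PRDX1MT and clone 5, and clone 1 kept its 5 and gained Adm. Mitochondrial genes took 0.519% of the counts in PRDX1MT, 2.05% and 0.871% in clones 1 and 5, and 2.08% in WT. Levels are given as CPM, library-size-normalised counts scaled by the TMM method, and 3 reads were worth 0.0729 to 0.121 CPM. Prdx1 stood at 31.2 CPM in PRDX1MT, at 392 and 332 CPM in clones 1 and 5, and at 399 CPM in WT. Dnmt3a read 31.3 and 25.9 CPM in clones 1 and 5, against 80.9 CPM in PRDX1MT and 43.7 CPM in WT, so its RNA remained detectable in the clones. Dnmt3b was low throughout, at 2.83 and 2.03 CPM in clones 1 and 5, 3.74 CPM in PRDX1MT and 3.28 CPM in WT. The 15 mesenchymal markers checked had reads in all 4 libraries. Their summed level was 38818 CPM in PRDX1MT, 29910 and 45362 CPM in clones 1 and 5, and 25926 CPM in WT, while the 7 epithelial markers summed to 2.17 CPM or less. The 5 endothelial markers summed to 18.2 CPM in PRDX1MT, 15.7 and 14.6 CPM in clones 1 and 5, and 6.88 CPM in WT, most of it from Tek and Vwf. Tek had 16.4 CPM in PRDX1MT, 5.97 and 11.9 CPM in clones 1 and 5, and 5.78 CPM in WT, and Vwf had 1.49 CPM in PRDX1MT, 9.42 and 2.29 CPM in clones 1 and 5, and 0.972 CPM in WT. The defining markers Pecam1 and Cdh5 had at most 12 and 2 reads in a library. The part of these markers in the results was not tested. The 6 immune markers reached 8.10 CPM, the 5 neural and glial markers 6.20 CPM and the 5 muscle markers 8.68 CPM at most. Of the mesenchymal markers, Thy1 read 0.757 and 1.38 CPM in clones 1 and 5, 0.884 CPM in PRDX1MT and 29.0 CPM in WT (edgeR adjusted p = 0.0321 for DKO against WT).

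Upstream sequence of 3 enzyme genes whose levels differed most between libraries is shown first, because the letters HIF is known to recognise can be read in it. The sequences are the 250 bases before the RefSeq start in GRCm38.p6, on the minus strand, at chr6:82774455-82774704 for Hk2, chr6:142507958-142508207 for Ldhb and chr6:124769674-124769923 for Eno2. Capitals mark the core of the hypoxia response element, searched as ACGTG or GCGTG on both strands, so that CACGT and CACGC also count and a CACGTG counts on each strand.
Hk2: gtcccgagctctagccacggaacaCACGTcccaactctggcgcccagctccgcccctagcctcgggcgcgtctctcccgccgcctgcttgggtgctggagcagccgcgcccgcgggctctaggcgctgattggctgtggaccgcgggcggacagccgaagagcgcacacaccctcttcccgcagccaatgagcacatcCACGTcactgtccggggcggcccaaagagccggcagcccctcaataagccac
Ldhb: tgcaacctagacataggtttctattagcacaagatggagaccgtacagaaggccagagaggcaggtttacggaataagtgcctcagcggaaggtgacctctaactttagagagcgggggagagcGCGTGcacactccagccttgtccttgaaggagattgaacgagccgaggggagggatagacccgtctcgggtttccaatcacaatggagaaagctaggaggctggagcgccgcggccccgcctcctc
Eno2: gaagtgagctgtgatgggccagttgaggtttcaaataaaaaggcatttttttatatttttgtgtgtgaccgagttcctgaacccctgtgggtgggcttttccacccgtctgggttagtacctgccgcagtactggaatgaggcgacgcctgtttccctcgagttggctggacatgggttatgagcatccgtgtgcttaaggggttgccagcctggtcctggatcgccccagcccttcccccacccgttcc
The Hk2 stretch holds 2 cores and 25 CpG dinucleotides, the Ldhb stretch 1 core and 14 CpG, and the Eno2 stretch no core and 9 CpG. Of the 36 genes, 34 had a RefSeq promoter in the table used (not Bnip3l and Ndrg1), and 31 of these 34 (91.2%) held a core in at least 1 promoter, against 41.5% of all 27025 genes searched in windows of the same length. Both searched motifs contain a CG, and the median promoter held 14 CpG dinucleotides among the members and 6 among all promoters. A match is a run of letters and not a bound site.

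None of the members passed the test of the DKO clones, and few of all genes did, so this lies near the background. Only the DKO group has 2 libraries, and WT and PRDX1MT have 1 each. In DKO against WT, 0 of the 35 members tested passed (edgeR's quasi-likelihood test, Benjamini-Hochberg adjusted p under 0.05), against 0.468% of the 19446 genes tested (0.0154% higher and 0.453% lower). In DKO against PRDX1MT, 0 of 35 passed, against 0.206% of all genes tested (0.0103% higher and 0.195% lower). At an unadjusted p under 0.05, Hk2 and Ndrg1 were past the threshold in DKO against WT, both higher in DKO, where 5.08% of all genes were. In DKO against PRDX1MT no member was, where 4.69% of all genes were. DESeq2 called 0 members in both comparisons, with the same 2 members at an unadjusted p under 0.05 against WT and 0 against PRDX1MT. Standard errors of the members' log2 fold changes were derived from the fold change and the F statistic of the test. In DKO against WT they ran from 0.43 to 1.07. The largest was that of Hk2, for which the 2 clones stood far apart, and Aldoc, with few reads, had 1.01.

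PRDX1MT and WT have 1 library each, so their difference, and that of each clone from WT, has no replicate check and no p-value. These pairs were described by a size rule: a log2 CPM ratio of at least 1 in size (2-fold), at least 100 reads in the 2 libraries together, and a 95% interval of the ratio that excludes 0. The intervals cover counting error only. The comparisons with WT all share the 1 WT library, so a gene that passes in several of them does not pass independently. In PRDX1MT against WT, 7 of the 33 members with enough reads passed the rule, 4 higher and 3 lower, against 14.8% of all genes (7.26% higher and 7.57% lower). In clone 1 against WT, 5 of 33 passed, all 5 of them higher, against 16.0% of all genes (8.41% higher and 7.59% lower). In clone 5 against WT, 3 of 33 passed, 1 higher and 2 lower, against 14.3% of all genes (5.69% higher and 8.59% lower). In both clones 1 member passed in the same direction, higher, where 1.65% of all genes passed as higher and 3.87% as lower in both. Over the 3 comparisons, 10 of 33 members passed at least once (30.3%), against 27.7% of all genes, so the members as a list stood near the background. The text therefore follows the single members.

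**Figure D1:**
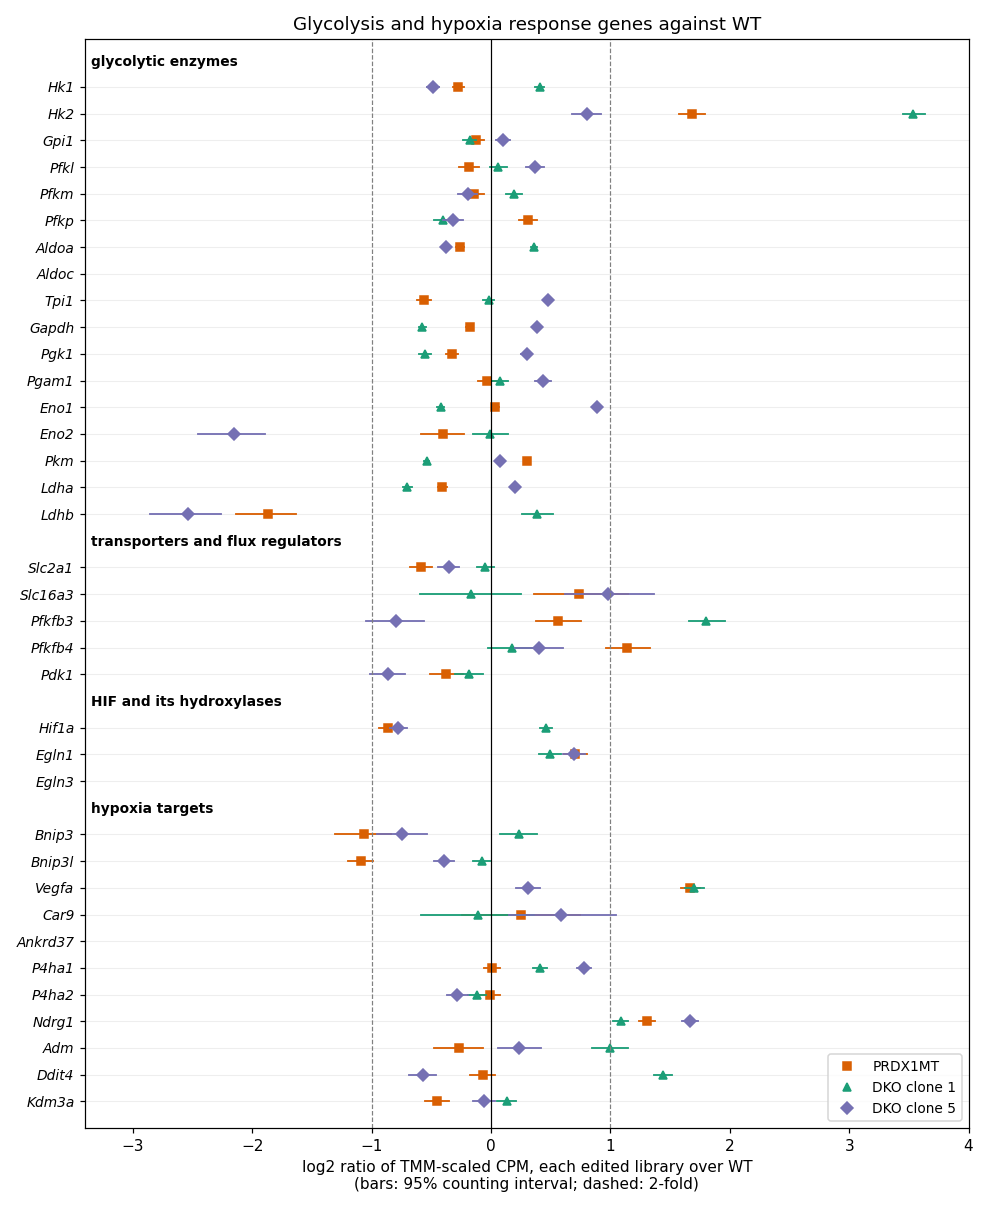
Log2 CPM ratio to WT (horizontal axis) of each member, in the rows, for PRDX1MT, DKO clone 1 and DKO clone 5 (points; bars are 95% conditional binomial intervals from counting error only). Most enzymes lie within 1 unit of 0, whereas Hk2 reaches 3.54 in clone 1 and Ldhb reaches -2.54 in clone 5. Aldoc, Egln3 and Ankrd37 have no points, since a pair of libraries held under 100 reads.

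None of the glycolytic enzymes with at least 50 CPM in WT stood more than 2-fold from WT in an edited library. Eno1 and Tpi1 differed by more than that between edited libraries. Choosing by the WT level leaves out Hk2, at 25.5 CPM in WT and 296 CPM in clone 1. Per kilobase of exon, used here to compare genes, the highest enzymes in WT were Pkm and Aldoa, at 238 and 184 CPM per kb. Pkm encodes pyruvate kinase, and Aldoa the aldolase of muscle and most other tissues. The length used joins all annotated exons of a gene and can differ from that of its RNA. Pkm, on chromosome 9 at 59656368 to 59679375 (GRCm38), stood above 99.7% of all genes with reads in WT. Gapdh followed at 153, Ldha at 127, Eno1 at 117, Pgk1 at 107 and Tpi1 at 76.1 CPM per kb. Reads on the 17 enzymes summed to 4555 CPM in PRDX1MT, 4177 and 5485 CPM in clones 1 and 5, and 4661 CPM in WT.

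**Figure D2:**
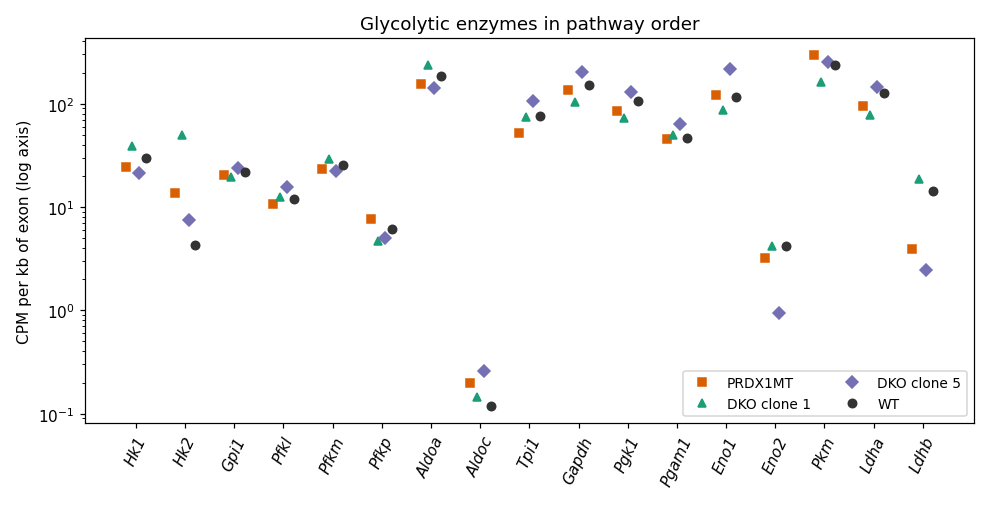
CPM per kilobase of exon (log axis) of the 17 glycolytic enzymes in PRDX1MT, DKO clone 1, DKO clone 5 and WT, 1 point per library, with enzymes along the pathway. Pkm and Aldoa are at the top in WT (238 and 184 CPM per kb) and Aldoc is at the bottom (0.12 CPM per kb).

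Of the 17 enzymes, 13 had at least 50 CPM in WT, and none of these 13 passed the size rule against WT in any of the 3 edited libraries. Of all genes with enough reads, 14.8% passed in PRDX1MT, 16.0% in clone 1 and 14.3% in clone 5. A share for genes of like level was not taken. The log2 ratios of the 13 enzymes to WT ran from -0.56 (Tpi1) to 0.31 (Pfkp) in PRDX1MT, from -0.70 (Ldha) to 0.41 (Hk1) in clone 1 and from -0.49 (Hk1) to 0.89 (Eno1) in clone 5. The median log2 fold change of the 17 enzymes in DKO against WT was 0.01, with 9 positive and 8 negative, beside 0.03 over all genes. Against PRDX1MT it was 0.26, beside 0.04 over all genes. Taken clone by clone over the 16 enzymes with enough reads, 9 log2 ratios to PRDX1MT were positive and 7 negative in clone 1 (median 0.18), and 8 were positive and 8 negative in clone 5 (median 0.08). The median log2 ratio of the 16 enzymes with enough reads in PRDX1MT against WT was -0.18, beside -0.04 over all genes. Scaling by total counts, which lowered the all-gene median of PRDX1MT by 0.28, put the enzyme median at -0.46.

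Pkm, whose product makes pyruvate, had 1468 CPM in PRDX1MT, 818 and 1255 CPM in clones 1 and 5, and 1188 CPM in WT. Gapdh, the glyceraldehyde-3-phosphate dehydrogenase gene, had 560.0 CPM in PRDX1MT, 425 and 829 CPM in clones 1 and 5, and 634 CPM in WT. Ldha, the lactate dehydrogenase subunit of muscle, had 316 CPM in PRDX1MT, 258 and 482 CPM in clones 1 and 5, and 419.9 CPM in WT. For all 3 genes clone 1 was the lowest library, and WT lay between the clones. Eno1, the enolase of most tissues, had 646 CPM in PRDX1MT, 470.0 and 1164 CPM in clones 1 and 5, and 629.9 CPM in WT. Clone 5 was the highest library for Eno1 and stood 2.48-fold above clone 1, which passed the size rule between the clones. Reads of near-identical copies limit these values. For Eno1, 2 copies together held 33.0% to 35.2% as many reads as Eno1 in the 4 libraries, and Eno1b was the more read copy. For Gapdh, 56 similar genes together held 9.50% to 9.62% as many reads as Gapdh.

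Aldoa had 448 CPM in PRDX1MT, 687 and 413 CPM in clones 1 and 5, and 536 CPM in WT, and clone 1 was its highest library. Clone 5 was highest for the next enzymes of the pathway: Tpi1 had 142 CPM in PRDX1MT, 207 and 292 CPM in clones 1 and 5, and 209 CPM in WT. Clone 5 stood 2.05-fold above PRDX1MT for Tpi1. Pgk1, the phosphoglycerate kinase gene, had 191 CPM in PRDX1MT, 163 and 294 CPM in clones 1 and 5, and 239.6 CPM in WT. Pgam1, the phosphoglycerate mutase gene, had 90.5 CPM in PRDX1MT, 97.7 and 125 CPM in clones 1 and 5, and 92.5 CPM in WT. Gpi1, which turns glucose-6-phosphate into fructose-6-phosphate, was nearly level, with 130.2 CPM in PRDX1MT, 125 and 152 CPM in clones 1 and 5, and 142 CPM in WT.

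The isoenzyme that stood out was Hk2, the hexokinase induced by insulin and by hypoxia, on chromosome 6 at 82725025 to 82774454. Hk2 had 81.8 CPM in PRDX1MT, 296 and 44.5 CPM in clones 1 and 5, and 25.5 CPM in WT. All 3 edited libraries were above WT, and clone 1 was far above the others. The level stood 3.21-fold above WT in PRDX1MT (log2 ratio 1.68, 95% interval 1.57 to 1.79) and 11.6-fold above WT in clone 1 (3.54, 3.45 to 3.63). In clone 5 the log2 ratio was 0.80, short of the rule, and clone 5 was 6.67-fold below clone 1. The DKO clones averaged 170.4 ± 178 CPM (SD, n = 2), which gave a log2 fold change against WT of 2.74 (SE 1.07, edgeR adjusted p = 0.862). Without a filter on low counts the call changed: the log2 fold change was 2.77 and the adjusted p by edgeR was 0.000484. Leaving out either clone, with WT and PRDX1MT joined as controls, gave no call of Hk2.

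Hexokinase 1 (Hk1), the housekeeping hexokinase, had 209 CPM in PRDX1MT, 335 and 180.2 CPM in clones 1 and 5, and 252 CPM in WT. Hk2 was 28.1% of the reads on both hexokinases in PRDX1MT (95% exact binomial interval 27.1 to 29.2), 46.9% in clone 1 (46.3 to 47.6), 19.8% in clone 5 (18.8 to 20.8) and 9.18% in WT (8.65 to 9.72). Per kilobase the share was 35.9% in PRDX1MT, 55.8% and 26.1% in clones 1 and 5, and 12.6% in WT. Clone 1 was thus the single library in which Hk2 exceeded Hk1 per length. By reads, Hk1 stayed above Hk2 in clone 1 too (11948 against 10567). Among all genes with reads, ranked per length, Hk2 lay at percentile 87.8 in PRDX1MT, 97.1 and 79.1 in clones 1 and 5, and 71.7 in WT.

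Ldhb, the lactate dehydrogenase subunit of heart, on chromosome 6 at 142490249 to 142507957, is the counterpart of Ldha in the lactate dehydrogenase tetramer. It had 6.15 CPM in PRDX1MT, 29.6 and 3.85 CPM in clones 1 and 5, and 22.6 CPM in WT. PRDX1MT and clone 5 were low, and clone 1 and WT were high. The mitochondrial share and the depth given above split the libraries the same way, and the Gm26917 share split them in reverse. Removing Gm26917 and the small, ribosomal and mitochondrial RNA genes left the same libraries past the rule. Beyond that, the part of these measures was not tested. The level was 3.67-fold lower than in WT in PRDX1MT (log2 ratio -1.87, 95% interval -2.13 to -1.63) and 5.87-fold lower in clone 5 (-2.54, -2.86 to -2.26), while clone 1 was at 0.39. Ldhb was the 1 member that passed the size rule as lower in both PRDX1MT and clone 5, where 3.58% of all genes did. The DKO clones averaged 16.7 ± 18.2 CPM (SD, n = 2; log2 fold change against WT -0.43, SE 0.97, edgeR adjusted p = 1.00). Of the reads on both lactate dehydrogenase genes, Ldhb took 1.91% in PRDX1MT, 10.3% and 0.793% in clones 1 and 5, and 5.11% in WT.

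Eno2, the neuronal enolase, on chromosome 6 at 124760053 to 124769673, had 15.0 CPM in PRDX1MT, 19.7 and 4.39 CPM in clones 1 and 5, and 19.8 CPM in WT. Clone 5 was the low library, 4.50-fold below WT (log2 ratio -2.16, 95% interval -2.46 to -1.89). The DKO clones averaged 12.1 ± 10.8 CPM (SD, n = 2; log2 fold change -0.71, SE 0.80, edgeR adjusted p = 1.00). Tpi1, the triosephosphate isomerase gene, lies on the same chromosome at 124810586 to 124814296 and stood the other way in clone 5, above WT. Of the 36 members, 6 lie on chromosome 6, and they did not share a direction.

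**Figure D3:**
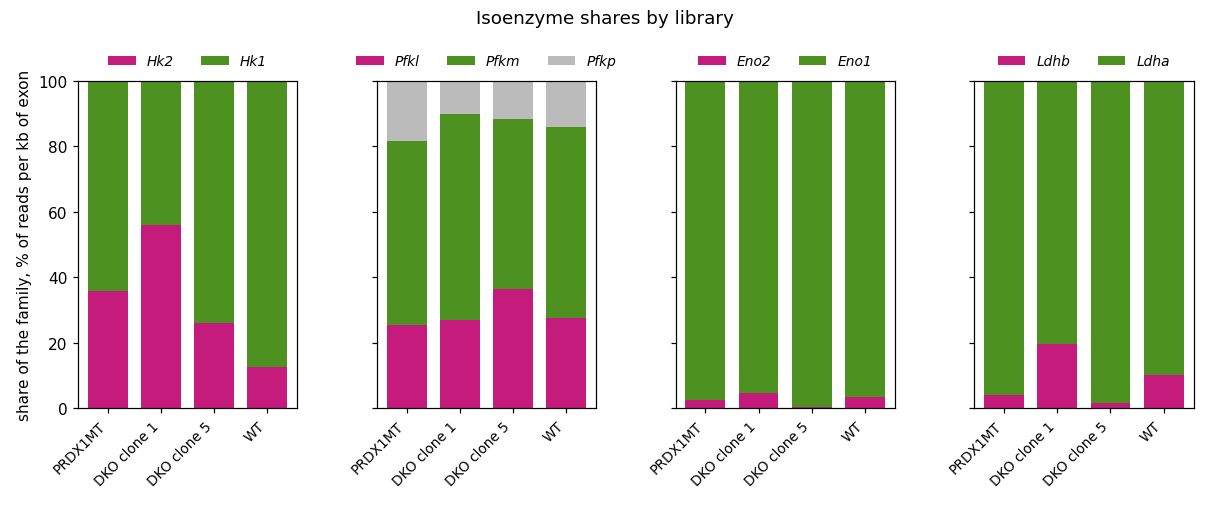
Share of the summed CPM per kilobase within isoenzyme pairs or families (percent) in PRDX1MT, DKO clone 1, DKO clone 5 and WT. Hk2 takes 55.8% of the hexokinases in clone 1 and 12.6% in WT, and Ldhb takes 1.66% of the lactate dehydrogenases in clone 5 and 10.2% in WT.

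In the phosphofructokinase family the order per kilobase in WT was Pfkm, Pfkl, Pfkp, and it was the same in the 3 edited libraries. This order follows the exon lengths used, 3340, 6675 and 13401 bp. By reads not divided by length, the 3 genes took 34.4%, 32.2% and 33.3% of the family in WT. On that scale Pfkp was highest in PRDX1MT (40.9%), Pfkm in clone 1 (40.0%) and Pfkl in clone 5 (42.3%). Pfkm, the muscle form, was 56.1% of the 3 genes per kilobase in PRDX1MT, 63.0% and 52.2% in clones 1 and 5, and 58.5% in WT. Pfkl, the liver form, had 70.8 CPM in PRDX1MT, 83.7 and 104 CPM in clones 1 and 5, and 80.3 CPM in WT. Pfkp, the platelet form, had 103 CPM in PRDX1MT, 62.9 and 66.6 CPM in clones 1 and 5, and 83.0 CPM in WT. None of the 3 passed the size rule. Aldoc, the brain aldolase, was near the limit of detection with 16 reads in PRDX1MT, 17 and 23 reads in clones 1 and 5, and 16 reads in WT.

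Among the transporters and flux regulators, Slc2a1, the basal glucose transporter GLUT1, was the highest per length in WT, at 23.2 CPM per kb. Slc2a1, on chromosome 4 at 119108711 to 119137983, had 54.1 CPM in PRDX1MT, 78.7 and 63.6 CPM in clones 1 and 5, and 81.3 CPM in WT. WT was the highest library, but no ratio passed the rule. Pfkfb3 and Pfkfb4 encode the bifunctional enzymes that make and break fructose-2,6-bisphosphate, the activator of phosphofructokinase. Pfkfb3, on chromosome 2 at 11471433 to 11554077, had 17.9 CPM in PRDX1MT, 42.3 and 6.94 CPM in clones 1 and 5, and 12.1 CPM in WT. The clones lay on either side of WT: clone 1 was 3.50-fold above it (log2 ratio 1.80, 95% interval 1.66 to 1.96), clone 5 was at -0.80, and the clones differed 6.10-fold. Pfkfb4, on chromosome 9 at 108991778 to 109032228, had 23.1 CPM in PRDX1MT, 11.8 and 13.8 CPM in clones 1 and 5, and 10.4 CPM in WT. PRDX1MT stood 2.21-fold above WT (1.14, 0.96 to 1.33), a ratio that fell short of the rule when total counts were used for scaling. Pfkfb3 was 33.3% of the pair per kilobase in PRDX1MT, 69.8% and 24.5% in clones 1 and 5, and 42.8% in WT.

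Slc16a3, the lactate exporter MCT4, was low, with 4.46 CPM in PRDX1MT, 2.36 and 5.27 CPM in clones 1 and 5, and 2.65 CPM in WT. Pdk1, whose kinase shuts pyruvate dehydrogenase, had 25.7 CPM in PRDX1MT, 29.2 and 18.3 CPM in clones 1 and 5, and 33.3 CPM in WT. Neither passed the rule against WT, and WT was the highest library for Pdk1. The median log2 ratio of the 5 genes to WT was 0.56 in PRDX1MT, -0.05 in clone 1 and -0.36 in clone 5.

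Hif1a, the oxygen-regulated HIF subunit, is controlled mainly at the protein level, which RNA does not show. Its gene, on chromosome 12 at 73901375 to 73947530, had 76.8 CPM in PRDX1MT, 192 and 81.3 CPM in clones 1 and 5, and 139 CPM in WT. Clone 1 was high, and PRDX1MT and clone 5 were low. The low libraries were also those with the lower mitochondrial share and depth and the higher Gm26917 share, whose part was not tested. PRDX1MT and clone 5 stayed within 2-fold of WT (log2 ratios -0.86 and -0.78). Between the clones the level was 2.36-fold lower in clone 5 than in clone 1. Egln1, the main HIF prolyl hydroxylase, had 69.3 CPM in PRDX1MT, 60.0 and 68.8 CPM in clones 1 and 5, and 42.5 CPM in WT. All 3 edited libraries were above WT, by less than 2-fold. Egln3, a hydroxylase that hypoxia itself induces, on chromosome 12 at 54178981 to 54203860, had 0 reads in PRDX1MT and in clones 1 and 5, against 9 reads (0.219 CPM) in WT. With 3 reads as the limit of a count of 0, these levels lie at or near the floor and give no fold.

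The member that passed the size rule above WT in all 3 edited libraries was Ndrg1, a stress-responsive gene linked to differentiation and growth arrest. Ndrg1, on chromosome 15 at 66929318 to 66969640, had 175 CPM in PRDX1MT, 149.9 and 224 CPM in clones 1 and 5, and 70.7 CPM in WT. It stood above WT 2.47-fold in PRDX1MT (log2 ratio 1.31, 95% interval 1.24 to 1.37), 2.12-fold in clone 1 (1.08, 1.02 to 1.15) and 3.17-fold in clone 5 (1.67, 1.60 to 1.73). By the size rule it was the 1 member of 33 called higher in all 3, where 0.949% of all genes were, and 0 members were called lower in all 3, where 2.15% of all genes were. The 3 ratios share the 1 WT library and are not independent. Scaling by total counts left clone 1 short of the rule. The DKO clones averaged 187 ± 52.6 CPM (SD, n = 2), with a log2 fold change of 1.40 against WT (SE 0.52, edgeR adjusted p = 0.812) and 0.10 against PRDX1MT (SE 0.49, edgeR adjusted p = 1.00).

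Vegfa, the angiogenic growth factor, on chromosome 17 at 46016993 to 46032369, had 142 CPM in PRDX1MT, 145 and 55.3 CPM in clones 1 and 5, and 44.6 CPM in WT. PRDX1MT and clone 1 were alike and high, and clone 5 lay close to WT. The ratio to WT was 3.18-fold in PRDX1MT (log2 ratio 1.67, 95% interval 1.59 to 1.75) and 3.26-fold in clone 1 (1.70, 1.63 to 1.78), with a log2 ratio of 0.31 in clone 5. In DKO as a group the mean was 100.2 ± 63.6 CPM (SD, n = 2; log2 fold change 1.17, SE 0.65, edgeR adjusted p = 1.00). Hk2, Ndrg1 and Vegfa were the 3 members of 33 that passed the rule above WT in both PRDX1MT and clone 1 (9.09%), against 2.19% of all genes.

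Bnip3 and Bnip3l encode related mitochondrial proteins that promote mitophagy, and both were low in PRDX1MT. Bnip3, on chromosome 7 at 138890836 to 138909519, had 7.80 CPM in PRDX1MT, 19.2 and 9.77 CPM in clones 1 and 5, and 16.4 CPM in WT. Bnip3l, on chromosome 14 at 66985239 to 67008877, had 39.8 CPM in PRDX1MT, 80.4 and 64.6 CPM in clones 1 and 5, and 84.9 CPM in WT. Against WT the level in PRDX1MT was 2.10-fold lower for Bnip3 (log2 ratio -1.06, 95% interval -1.31 to -0.84) and 2.13-fold lower for Bnip3l (-1.09, -1.20 to -0.99). Neither passed the rule in a DKO clone. An antisense gene covers 22.3% of the Bnip3 exons, and whether the counting used strand is not given in the sources used here.

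Ddit4, an inhibitor of mTORC1 signalling, was the highest hypoxia target per length in WT, at 27.2 CPM per kb. Ddit4, on chromosome 10 at 59949669 to 59951834, had 45.5 CPM in PRDX1MT, 129.6 and 32.1 CPM in clones 1 and 5, and 47.8 CPM in WT. Clone 1 was the high library, 2.71-fold above WT (log2 ratio 1.44, 95% interval 1.36 to 1.52), and clone 5 was 4.04-fold below clone 1. Adm, the vasodilator peptide adrenomedullin, had 11.8 CPM in PRDX1MT, 28.3 and 16.7 CPM in clones 1 and 5, and 14.2 CPM in WT. Its ratio in clone 1 was 2.00-fold, just short of the rule, and it passed under median-of-ratios scaling and with the small, ribosomal and mitochondrial RNA genes and Gm26917 removed.

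**Figure D4:**
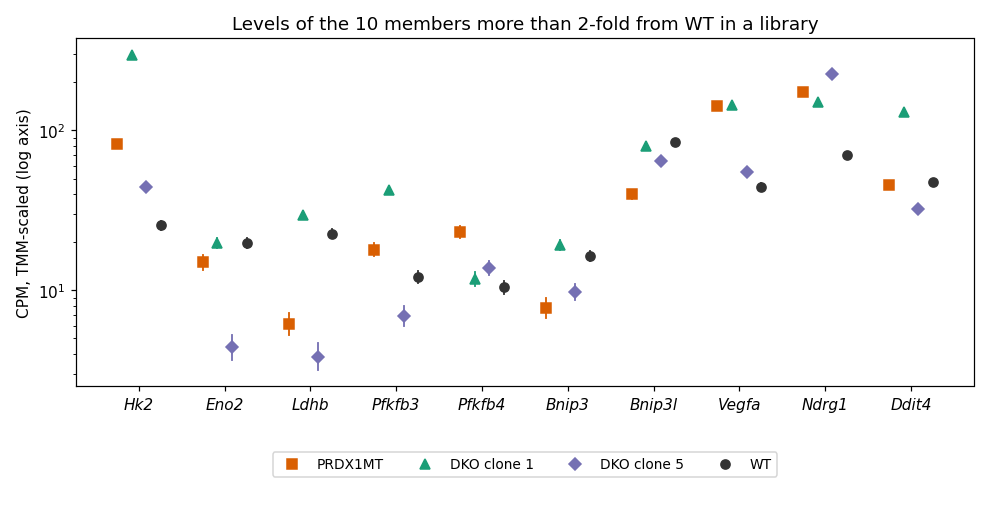
CPM (log axis) in PRDX1MT, DKO clone 1, DKO clone 5 and WT of the members that passed the size rule against WT, 1 point per library with exact Poisson 95% intervals. The 3 edited libraries lie above WT for Hk2, Vegfa and Ndrg1, and for Ldhb PRDX1MT (6.15 CPM) and clone 5 (3.85 CPM) lie below clone 1 and WT.

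The other hypoxia targets passed the rule in no library. P4ha1, a subunit of collagen prolyl hydroxylase, had 107 CPM in PRDX1MT, 141 and 183 CPM in clones 1 and 5, and 106 CPM in WT. Its relative P4ha2 had 71.7 CPM in PRDX1MT, 66.6 and 59.3 CPM in clones 1 and 5, and 72.2 CPM in WT. For P4ha1 both clones lay above the other libraries, by 1.72-fold over WT in clone 5. For P4ha2 both lay below them, with small differences. Kdm3a, a histone H3 lysine demethylase, had 45.3 CPM in PRDX1MT, 67.7 and 59.5 CPM in clones 1 and 5, and 61.9 CPM in WT. Car9, the carbonic anhydrase often used as a hypoxia marker, had 2.49 CPM in PRDX1MT, 1.93 and 3.16 CPM in clones 1 and 5, and 2.09 CPM in WT. Ankrd37 had between 0.726 and 1.29 CPM. The median log2 ratio to WT of the 10 targets with enough reads (all but Ankrd37) was -0.04 in PRDX1MT, 0.32 in clone 1 and 0.09 in clone 5, beside -0.04, -0.02 and -0.03 over all genes.

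More members passed the size rule between the DKO clones than between either clone and WT. In clone 5 against clone 1, 2 members passed the rule as higher, Eno1 and Slc16a3, and 7 as lower, Ddit4, Eno2, Hif1a, Hk2, Ldhb, Pfkfb3 and Vegfa, where 18.4% of all genes passed (7.63% higher and 10.7% lower). The largest of these ratios were 7.68-fold for Ldhb and 6.67-fold for Hk2. In clone 1 against PRDX1MT, 8 members were higher and 0 lower, where 15.0% of all genes passed (8.14% higher and 6.84% lower). The 8 were Adm, Bnip3, Bnip3l, Ddit4, Hif1a, Hk2, Ldhb and Pfkfb3. In clone 5 against PRDX1MT, 1 was higher, Tpi1, and 3 were lower, Eno2, Pfkfb3 and Vegfa, where 13.8% of all genes passed (5.81% higher and 8.00% lower). How the clones were made is not given in the sources used here, so the spread between them is that of these 2 samples.

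Related pathways were followed through further lists, and edgeR called 0 genes of them in DKO against WT or against PRDX1MT. Over all genes, 14.8% passed the size rule against WT in PRDX1MT, 16.0% in clone 1 and 14.3% in clone 5. None of the 8 pentose phosphate genes passed the size rule in any edited library. Of the 12 genes of pyruvate entry into mitochondria, 0 were higher and 1 was lower in PRDX1MT, 1 in clone 1 and 2 in clone 5. The gene that passed as lower in all 3 was Pdk4, a fasting-induced pyruvate dehydrogenase kinase. Pdk4 had 2.49 CPM in PRDX1MT, 12.8 and 5.96 CPM in clones 1 and 5, and 41.5 CPM in WT (edgeR adjusted p = 0.355 for DKO against WT). Slc2a6, a lysosomal glucose transporter family member, had 5.43 CPM in PRDX1MT, 0.925 and 0.726 CPM in clones 1 and 5, and 3.38 CPM in WT. Both clones were low for Slc2a6. Of 17 other glycolytic isoenzymes, 8 or 9 had enough reads, and 2 passed as higher in clone 1 and none in PRDX1MT or clone 5. Of 13 genes of gluconeogenesis and glycogen, 8 of them with enough reads, 1 was higher and 1 lower in PRDX1MT, 2 were higher in clone 1, and 2 were lower in clone 5.

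Of 14 other oxygen-sensing genes, 13 had enough reads. In PRDX1MT, 1 passed as higher, and in clone 1, 1 passed as higher and 1 as lower. In clone 5, 2 passed as higher and 1 as lower. Of all genes, 14.8% passed in PRDX1MT, 16.0% in clone 1 and 14.3% in clone 5. Among them Epas1, which encodes the HIF-2 alpha subunit, had 88.7 CPM in PRDX1MT, 17.2 and 4.87 CPM in clones 1 and 5, and 51.2 CPM in WT. Both clones were below the other libraries (edgeR adjusted p = 0.531 against WT and 0.281 against PRDX1MT). Siah2, a ubiquitin ligase that targets HIF hydroxylases, had 46.7 CPM in PRDX1MT, 32.4 and 20.01 CPM in clones 1 and 5, and 16.1 CPM in WT. Of 32 other hypoxia targets, 25 had enough reads in PRDX1MT and clone 5 and 26 in clone 1. Of these, 4 passed the rule as higher in PRDX1MT (7.26% of all genes), 7 in clone 1 (8.41%) and 2 in clone 5 (5.69%). As lower, 1 passed in each, where 7.57%, 7.59% and 8.59% of all genes did. Edn1, the vasoconstrictor endothelin-1, had 13.5 CPM in PRDX1MT, 1.57 and 20.3 CPM in clones 1 and 5, and 4.06 CPM in WT, so the clones stood on opposite sides of WT.

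Of 9 other transcriptional regulators of glycolysis, 6 or 7 had enough reads. In PRDX1MT, 1 passed as higher and 2 as lower, where 14.8% of all genes passed. In clone 1, 2 passed as higher, where 8.41% of all genes did. Txnip, an arrestin-like protein that limits glucose uptake, had 18.4 CPM in PRDX1MT, 112 and 67.7 CPM in clones 1 and 5, and 73.0 CPM in WT, with a log2 ratio to WT of -1.98 in PRDX1MT. Its relative Arrdc4 had 3.30 CPM in PRDX1MT, 8.61 and 9.52 CPM in clones 1 and 5, and 11.1 CPM in WT (log2 ratio -1.73 in PRDX1MT). PRDX1MT was the low library for both. Mlxip, which encodes MondoA, a factor known to drive transcription of both, had 144 CPM in PRDX1MT, 115 and 94.0 CPM in clones 1 and 5, and 62.3 CPM in WT (log2 ratio 1.21 in PRDX1MT).

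**Figure D5:**
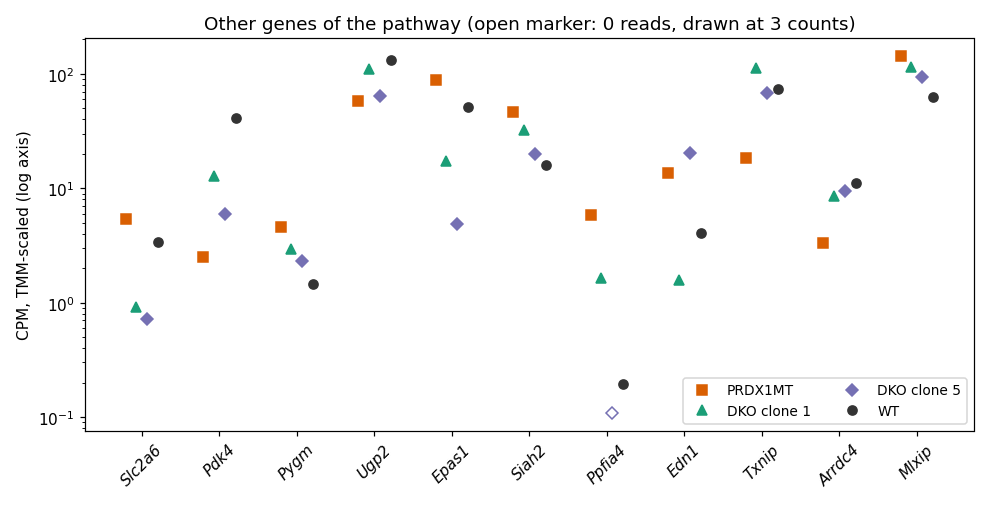
CPM (log axis) in PRDX1MT, DKO clone 1, DKO clone 5 and WT of genes named from related pathway lists, 1 point per library (an open marker stands for 0 reads, drawn at the level of 3). Epas1 is low in both clones (17.2 and 4.87 CPM) against 51.2 CPM in WT, and Txnip is low in PRDX1MT (18.4 CPM) against 73.0 CPM in WT.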

How the data were processed

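RNA of 4 libraries was made into stranded total RNA libraries after removal of ribosomal RNA, per the labels' protocols, and aligned with STAR 2.6.1d to mm10, per the submitters' processing notes. The authors deposited raw counts, whole numbers of reads for each gene and library. Which program, annotation and strand setting produced them was not given in the labels or headers, so overlapping, antisense and near-identical genes are uncertain. GENCODE M21 gave symbols for 54495 of 54532 identifiers. Of a pair of identifiers named Aldoa, the one with more reads was used.

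Counts were fitted in R 4.3.3 with edgeR 4.0.16 (TMM, filterByExpr by group, quasi-likelihood test, Benjamini-Hochberg adjustment over 19446 genes), all groups together. DESeq2 1.42.0 was an alternative. The residual degrees of freedom number 1, given by the pair of DKO clones, and the fit assumes that the single libraries vary like them. The p-values rest on the spread between the DKO clones, which may be technical. That spread is moderated toward the trend of all genes (prior degrees of freedom 6.54). Ratios of single libraries used a prior count of 2, with conditional exact binomial intervals. Near-identical copies were found with blastn 2.17.0 at 97% identity over at least 100 bases.

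Members and lists were chosen with earlier results of these data known. Named members passed a test or the size rule against WT, were highest per length in WT within their role, or had 0 reads in a library. From each other list, up to 3 genes with the largest ratios past the rule qualified. A further gene that qualified is not reported here. Further members were given for completeness. The calculations were tested on simulated counts. Their spread was set below that fitted to these data (common dispersion 0.187). That check concerns the code and does not show how well the test detects changes here.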

Additional observations from a re-analysis of the deposited data

How the results depend on the processing

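No paired analysis was possible because WT and PRDX1MT have 1 library each. The numbers of the DKO libraries are clone numbers and define no pairs. Under the alternatives to the test of DKO against WT, which called 91 genes, DESeq2 called 262, the fit without a low-count filter 535, and a filter of 1 CPM in 2 libraries 0 (490 at an unadjusted p under 0.05). Leaving out 1 clone, with WT and PRDX1MT joined as controls, gave 21 to 92. In DKO against PRDX1MT, which called 40 genes, DESeq2 called 215, median-of-ratios factors 13, total-count scaling 7, no low-count filter 404, a filter of 1 CPM in 2 libraries 0 (530 at an unadjusted p under 0.05), a fit of the 2 groups alone 11, and removal of small, ribosomal and mitochondrial RNA genes and Gm26917 gave 14. The fits that left out 1 clone joined WT and PRDX1MT, so they are the same fits for both comparisons. Hk2 was the member called in any of these settings, without the low-count filter in DKO against WT.

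Under a 1.5-fold rule 11 members passed in PRDX1MT, 7 in clone 1 and 12 in clone 5, in place of 7, 5 and 3. Under a 4-fold rule 0 passed in PRDX1MT, 1 in clone 1 (Hk2) and 2 in clone 5 (Eno2 and Ldhb). The share of all genes was taken under the 2-fold rule alone, so these counts have no background beside them. Total-count scaling removed Pfkfb4 from and added Hif1a to the PRDX1MT members, removed Ndrg1 from those of clone 1, and added Pdk1 to those of clone 5. Median-of-ratios factors, and the removal of the RNA genes named above, each added Adm to those of clone 1. Total-count scaling also put the enzyme median in DKO against WT at -0.11, in place of 0.01. The cause was not tested. No result turned its direction where it had been called. Members near the floor, Egln3, Aldoc and Ankrd37, are limited by depth.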

Other observations

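Among the remaining genes of related lists that passed the size rule, Ppfia4, a liprin family gene listed among hypoxia targets, had 144 reads in PRDX1MT, 59 and 0 reads in clones 1 and 5, and 8 reads in WT. Pygm, the muscle glycogen phosphorylase, had 4.54 CPM in PRDX1MT, 2.92 and 2.32 CPM in clones 1 and 5, and 1.46 CPM in WT, so WT was the lowest library. Ugp2, which makes the UDP-glucose used for glycogen, had 57.8 CPM in PRDX1MT, 110.4 and 64.4 CPM in clones 1 and 5, and 132.9 CPM in WT, so WT was the highest library.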
